A study of Mus musculus with 8 samples.

Results

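Interferon-response T cells were analysed in the bone marrow of Runx1::Runx1t1 and control mice. A barcode was counted as such a cell when it had at least 200 genes, at most 15% mitochondrial UMIs, at least 1 UMI of Cd3d, Cd3e and Cd3g together, and at least 1 UMI each of Ifit1, Ifit3 and Isg15 (a UMI marks a distinct RNA molecule). The cells were thus chosen by their measured UMI counts of these genes, 458 of 52765 T cells, out of 56649 barcodes in all. They are compared below with the 42874 T cells in which none of the 3 genes had a UMI, called T cells lacking the 3 genes.

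The Runx1::Runx1t1 group consisted of C57BL/6 mice with the conditional Runx1::Runx1t1 knock-in on 1 allele (Runx1 Runx1t1/+) and Mx1-Cre, a recombinase driven by the interferon-inducible Mx1 promoter in hematopoietic cells. The control group consisted of sex-matched littermates with the same knock-in allele but without Mx1-Cre according to the study's methods, whereas the sample labels call them wild type. All mice of both groups were given Poly(I:C), a synthetic double-stranded RNA that itself induces interferon, 4 times (dose 5 mg/kg), and were sacrificed 4 weeks after induction. Ages were not given in the sources used here. CD3+ cells without mCherry, the reporter of the fusion gene, and without DAPI were sorted, so the T cells of both groups lacked the reporter. Each group had 2 pools of 2 mice (replicate 1 and replicate 2), and each pool gave a 10x Genomics 5′ gene expression library and a T cell receptor (TCR) library. The gene expression libraries held 102883449 and 100115383 UMIs in the Runx1::Runx1t1 group and 90958101 and 99869646 UMIs in the control group. The pools are the replicates (n = 2 per group), and cells of a pool were never counted as replicates. Between 256 and 306 barcodes were shared by each pair of libraries, at most 2.10% of the smaller one.

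Interferons are secreted proteins that bind receptors on almost every cell and signal through JAK kinases and STAT factors. The type I signal brings a complex that holds STAT2 and IRF9 to interferon-stimulated response elements and switches on genes that block viral replication, sense viral RNA and load peptides for presentation. Among T cells, a small subset with high levels of these genes is a known feature of single-cell data from mice and humans. Ifit1 and Ifit3 code for proteins that bind viral RNA and each other, and Isg15 codes for a ubiquitin-like modifier.

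The promoters of the 3 genes that chose the cells, and of Rsad2 (viperin, an antiviral enzyme that was not used for the choice) and Cxcl10 (a chemokine that attracts activated T cells), are printed to show the element through which the pathway acts. Each is 300 bases, from 250 bases before the transcription start to 50 bases after it, 5′ to 3′ on the strand of the gene, taken from RefSeq on GRCm38.p6. Capitals mark matches to GAAANNGAAA or, on the other strand, TTTCNNTTTC, the core of the interferon-stimulated response element.
Ifit1 (chr19:34640639-34640938, plus strand): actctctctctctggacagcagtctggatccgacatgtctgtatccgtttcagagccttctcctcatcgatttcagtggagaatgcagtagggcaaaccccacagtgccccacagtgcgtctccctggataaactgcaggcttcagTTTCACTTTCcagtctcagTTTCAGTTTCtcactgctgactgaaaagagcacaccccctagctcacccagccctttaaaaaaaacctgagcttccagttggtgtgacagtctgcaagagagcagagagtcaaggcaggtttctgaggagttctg
Ifit3 (chr19:34583279-34583578, plus strand): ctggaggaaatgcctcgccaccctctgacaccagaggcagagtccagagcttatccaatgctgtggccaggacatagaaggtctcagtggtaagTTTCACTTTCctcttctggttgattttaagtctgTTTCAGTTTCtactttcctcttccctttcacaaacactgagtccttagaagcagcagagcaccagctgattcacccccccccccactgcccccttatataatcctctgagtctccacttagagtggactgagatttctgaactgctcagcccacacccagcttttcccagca
Isg15 (chr4:156200769-156201068, minus strand): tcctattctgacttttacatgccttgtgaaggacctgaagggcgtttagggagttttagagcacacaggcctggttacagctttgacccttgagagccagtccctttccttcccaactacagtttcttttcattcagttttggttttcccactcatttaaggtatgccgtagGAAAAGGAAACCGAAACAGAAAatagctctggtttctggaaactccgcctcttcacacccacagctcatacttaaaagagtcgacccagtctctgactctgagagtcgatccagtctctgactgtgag
Rsad2 (chr12:26456403-26456702, minus strand): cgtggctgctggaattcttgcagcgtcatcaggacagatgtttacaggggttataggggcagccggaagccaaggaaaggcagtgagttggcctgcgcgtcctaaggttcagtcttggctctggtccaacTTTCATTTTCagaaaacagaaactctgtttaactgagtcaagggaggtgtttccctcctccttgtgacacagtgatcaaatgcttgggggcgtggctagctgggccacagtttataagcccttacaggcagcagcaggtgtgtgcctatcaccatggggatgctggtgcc
Cxcl10 (chr5:92348840-92349139, minus strand): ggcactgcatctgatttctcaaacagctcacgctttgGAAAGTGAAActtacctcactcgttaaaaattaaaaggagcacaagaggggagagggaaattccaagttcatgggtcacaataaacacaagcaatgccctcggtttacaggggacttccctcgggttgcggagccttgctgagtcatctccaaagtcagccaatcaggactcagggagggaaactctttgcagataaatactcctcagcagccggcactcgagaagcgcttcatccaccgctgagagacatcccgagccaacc

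Ifit1 and Ifit3 each held 2 matches, Isg15 held 3 that overlap one another, and Rsad2 and Cxcl10 held 1 each. Of windows that are not printed, that of Ifit3b held 2 and that of Ifng, the gene of interferon gamma, held 0. The match nearest to the start ended 75 bases before it in Ifit1, 112 in Ifit3, 56 in Isg15, 110 in Rsad2 and 203 in Cxcl10. Across all windows of this length in the RefSeq table, 1131 of 32851 (3.44%) held a match. A match is a run of letters and not a measured binding site, since no binding or chromatin data belong to these libraries.

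The rule left few molecules per cell. Interferon-response T cells had a median of 2 UMIs of Ifit1 and 2 of Ifit3 in each of the 4 pools, and a median of 3, 4, 4 and 5 UMIs of Isg15 in Runx1::Runx1t1 replicates 1 and 2 and control replicates 1 and 2. The 3 genes together had a median of 8, 8, 9 and 10 UMIs per cell in the same order, and at most 53. Just inside the limit, 38 of the 458 cells (8.30%) had exactly 1 UMI of each gene. Just outside it stood 1135 T cells with UMIs of exactly 2 of the 3 genes, and their median was 3 UMIs of the 3 genes together. These values chose the cells and are given as a description.

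The chosen cells were also somewhat deeper than the others. Their median was 7913 and 7019 UMIs in Runx1::Runx1t1 replicates 1 and 2 and 7871 and 6937 in control replicates 1 and 2, against 6366.5, 6331, 6255 and 6440 in T cells lacking the 3 genes. Among barcodes that passed the filters without a Cd3 UMI, which had a median depth between 1142 and 1499 UMIs, all 3 genes were found in 0 of 781 and 0 of 669 in the Runx1::Runx1t1 pools. A count of 0 still allows shares of up to 0.384% and 0.448% there, from counting error only. In the control pools all 3 genes were found in 5 of 684 (0.731%) and 5 of 951 (0.526%) of such barcodes. Doublet scores marked 8, 4, 5 and 5 of the chosen cells, 8.99%, 2.96%, 6.49% and 3.18% of them, against 4.92%, 3.68%, 5.02% and 5.30% of T cells lacking the 3 genes.

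Other genes that interferon induces, which the rule did not use, rose in steps with the number of the 3 genes found in a cell. For 93 such genes (antiviral effectors, guanylate-binding and immunity-related GTPases and other interferon-induced genes), the median share of a T cell's UMIs in Runx1::Runx1t1 replicate 1 was 0.858% with none of the 3 genes, 0.956% with 1, 1.34% with 2 and 2.15% with all 3. In Runx1::Runx1t1 replicate 2 the medians were 0.868%, 0.982%, 1.30% and 2.24%. Control replicate 1 gave 0.867%, 0.976%, 1.47% and 2.40%, and control replicate 2 gave 0.937%, 1.07%, 1.67% and 2.46%. The order was the same in all 4 pools, and the T cells with 2 of the 3 genes lay between those with 1 and those with 3. Above the 95th percentile of T cells lacking the 3 genes in the same pool lay 79.8%, 76.3%, 85.7% and 84.7% of the interferon-response T cells. The lowest single cell in each pool (0.622%, 0.635%, 0.838% and 0.648%) was below the median of T cells lacking the 3 genes, so not every chosen cell had high levels of the other genes.

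**Figure D1:**
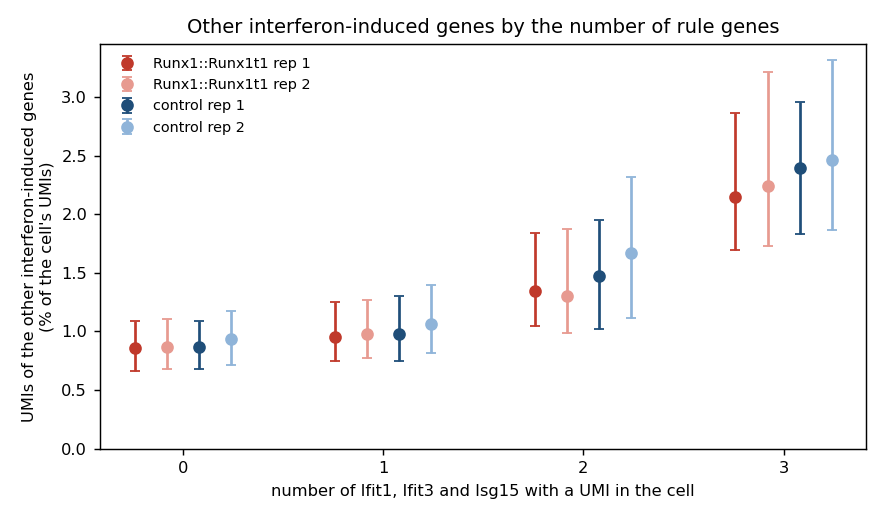
UMIs of the 93 other interferon-induced genes as a percentage of a cell's UMIs (vertical axis) against the number of Ifit1, Ifit3 and Isg15 found in the cell (horizontal axis), for T cells of each pool. Points are medians over cells and bars run from the lower to the upper quartile; in each of the 4 pools the median is highest in cells with all 3 genes, between 2.15% and 2.46%.

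The first question between the groups was whether interferon-response cells took a different share of the T cells. They were 89 of 13773 T cells (0.646%, 95% Wilson interval 0.525 to 0.794) in Runx1::Runx1t1 replicate 1 and 135 of 12914 (1.05%, 0.884 to 1.24) in Runx1::Runx1t1 replicate 2. In control replicates 1 and 2 they were 77 of 12797 (0.602%, 0.482 to 0.751) and 157 of 13281 (1.18%, 1.01 to 1.38). The groups overlapped, and in both groups replicate 2 was higher than replicate 1. The means were 0.846% ± 0.282 (SD, n = 2) in the Runx1::Runx1t1 group and 0.892% ± 0.410 (SD, n = 2) in the control group, a difference of -0.046 percentage points (two-sided exact permutation test, p = 1; 2 pools against 2 cannot give a p under 0.33). The Wilson intervals cover counting error only.

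The replicate numbers also separated the pools by sex-linked genes. Xist, the RNA that silences an X chromosome in female cells, was at 449 and 234 CPM (UMIs scaled to the same total) in T cells lacking the 3 genes of Runx1::Runx1t1 and control replicate 1, and at 0.564 and 0.178 in both replicates 2. Within replicate 1 the share differed by 0.044 percentage points (Runx1::Runx1t1 minus control) and within replicate 2 by -0.137. Replicate number and sex-linked genes cannot be told apart here, and their part in the share was not tested.

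By co-receptor UMIs, the share among T cells with Cd8a or Cd8b1 and no Cd4 UMI was 0.648% and 0.965% in Runx1::Runx1t1 replicates 1 and 2 and 0.592% and 1.35% in control replicates 1 and 2 (difference in means -0.164 percentage points, two-sided exact permutation test, p = 1). Among T cells with Cd4 UMIs and no Cd8a or Cd8b1, the share was 0.450% and 1.13% against 0.651% and 1.42% (difference -0.244 percentage points, two-sided exact permutation test, p = 0.667). In both classes the groups overlapped, and replicate 2 was again the higher pool. Cells with neither co-receptor gave 0.585%, 0.973%, 0.557% and 0.782% in the same pool order, and cells with UMIs of both gave 1.55%, 1.62%, 1.32% and 2.47%, from 12, 15, 4 and 7 cells. When each cell was thinned to 3000 UMIs, which left out 1130, 924, 1138 and 927 shallower T cells, 0.191%, 0.427%, 0.241% and 0.441% of T cells still had all 3 genes, and replicate 2 stayed above replicate 1 in both groups. In Cd4 T cells, with 4, 10, 5 and 4 such cells left, control replicate 1 (0.578%) was then above control replicate 2 (0.520%).

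**Figure D2:**
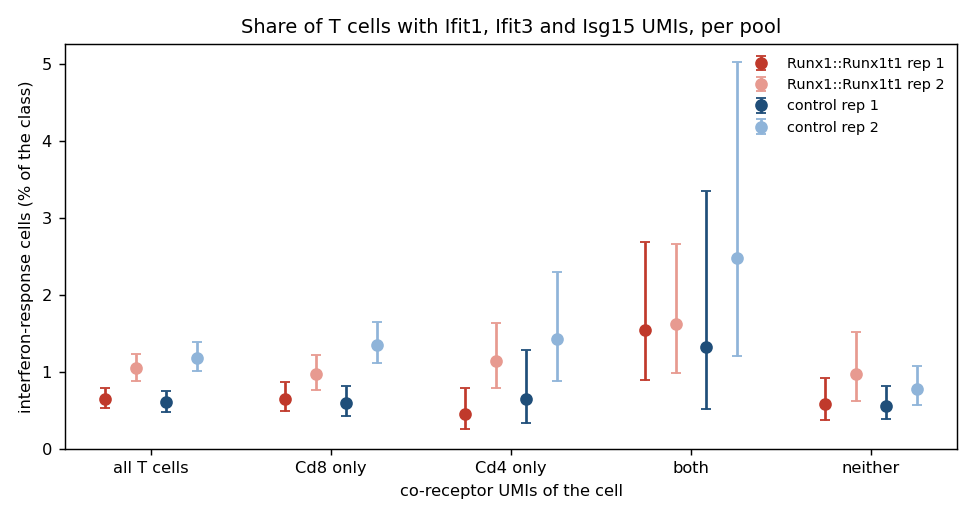
Share of interferon-response cells (% of the class, vertical axis) in all T cells and in T cells split by co-receptor UMIs (horizontal axis), for each of the 4 pools. Bars are 95% Wilson intervals, which cover counting error only; replicate 2 lies above replicate 1 in both groups and in every class.

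Cells with only Cd8 UMIs were the most frequent co-receptor class of the interferon-response T cells in each pool. Cells with only Cd8a or Cd8b1 UMIs were 47 of 89 (52.8%), 73 of 135 (54.1%), 38 of 77 (49.4%) and 98 of 157 (62.4%) of them in the 4 pools, against 52.5%, 58.7%, 49.8% and 53.8% of T cells lacking the 3 genes. Cd4 UMIs alone were found in 12, 28, 8 and 16 of the interferon-response T cells (13.5%, 20.7%, 10.4% and 10.2%), against 19.0%, 18.7%, 9.21% and 8.14%. UMIs of both co-receptors were found in 13.5%, 11.1%, 5.19% and 4.46%, against 5.13%, 6.35%, 2.15% and 1.9%; the higher depth of the chosen cells moved with this, and its part was not tested. The summed levels of Cd4, Cd8a and Cd8b1 were not called different between the 2 classes (log2 fold changes 0.11 ± 0.11, 0.09 ± 0.09 and 0.18 ± 0.06 (SE)).

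The TCR library gave a readout that the rule did not use. A paired TCR (a TRA and a TRB contig) was found in 70.8%, 70.4%, 74.0% and 79% of interferon-response T cells, against 73.3%, 69.2%, 68.5% and 71.2% of T cells lacking the 3 genes (mean difference 2.99 percentage points, higher in 3 of 4 pools, two-sided exact permutation test of signs, p = 0.375, where 4 pools cannot give a p under 0.13). Among cells of 5000 to 15000 UMIs that difference was -0.153 percentage points (higher in 2 of 4 pools). Of the paired cells, 20 of 63 (31.7%), 35 of 95 (36.8%), 7 of 57 (12.3%) and 30 of 124 (24.2%) belonged to clonotypes of 2 or more T cells, where a clonotype is the same TRA and TRB CDR3 nucleotide sequence in a pool. In T cells lacking the 3 genes these shares were 27.0%, 40.6%, 10.4% and 12.3% (mean difference 3.69 percentage points, higher in 3 of 4 pools, two-sided exact permutation test of signs, p = 0.375). Among Cd8 T cells alone the shares were 36.1%, 46.0%, 15.6% and 31.3% against 23.5%, 43.0%, 8.01% and 13.1% (mean difference 10.4 percentage points, higher in 4 of 4 pools, two-sided exact permutation test of signs, p = 0.13, the smallest it can give).

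The interferon-response cells fell into 60, 85, 57 and 119 distinct clonotypes for 63, 95, 57 and 124 paired cells, and no clonotype held more than 4, 4, 1 and 3 of them. Clonotypes of 10 or more T cells held 11, 25, 0 and 12 of them, which is 17.5%, 26.3%, 0% and 9.68% of the paired cells, against 13.5%, 30.6%, 1.56% and 3.20% of paired T cells lacking the 3 genes.

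Genes were then compared between interferon-response T cells and T cells lacking the 3 genes, on UMIs summed per pool and class with the pool as a block (edgeR's quasi-likelihood test, Benjamini-Hochberg adjusted p under 0.05). The 3 genes and the Cd3 genes were left out. The 2 classes were cut in these same libraries by 3 genes of the pathway, so the calls below describe which genes went with them beyond the spread between pools and are no independent test of the pathway. Of 12718 genes, 453 (3.56%) were called higher and 136 (1.07%) lower, and the median of all genes was -0.05 on the log2 scale. The lower calls were the less stable. Leaving out a pool gave 358 to 401 higher and 61 to 98 lower, and DESeq2 gave 448 and 47. All levels are in CPM (the UMIs of a gene in a sum of cells, scaled so that every sum has the same total), given for Runx1::Runx1t1 replicates 1 and 2 and then control replicates 1 and 2; the 5′ chemistry counts molecules, so no length correction was made.

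Antiviral effectors made the strongest group. All 29 tested genes of this list (33 listed, 31 in the table) were called higher, with a median log2 fold change of 2.78 against -0.05 for all genes. Rsad2 was at 110, 84.7, 108 and 152 in interferon-response T cells and at 1.32, 1.56, 1.51 and 1.75 in T cells lacking the 3 genes (log2 fold change 6.22 ± 0.14 (SE)). It was found in 43.8%, 34.1%, 46.8% and 46.5% of interferon-response T cells, and in 0.883%, 1.04%, 0.935% and 1.12% of T cells lacking the 3 genes, so most of the chosen cells had no UMI of this marker. Ifit3b was at 133, 113, 126 and 167 against 0.864, 1.10, 0.581 and 1.23 (7.15 ± 0.14), but it is nearly identical to Ifit3, which chose the cells, and reads may have been divided between them. Cmpk2, a mitochondrial nucleotide kinase that neighbors Rsad2, had 4.84 ± 0.11, and Oas2, which makes the 2′-5′ oligoadenylates that activate RNase L, had 4.23 ± 0.28. In each of these 4 genes every pool of interferon-response T cells was above every pool of T cells lacking the 3 genes.

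Sensors and transducers of the pathway were higher too, although unevenly. Of 12 tested, 8 were called higher and none lower (median 1.99). Irf7, the factor that amplifies type I interferon, was at 385, 363, 356 and 486 against 50.3, 53.1, 43.0 and 52.3 (3.01 ± 0.07). The RNA helicases Dhx58 (3.54 ± 0.14) and Ifih1 (3.17 ± 0.15), which belong to the RIG-I-like receptor family, and Stat2 (2.37 ± 0.12) rose with it. The upstream kinases Jak1 (-0.11 ± 0.06) and Tyk2 (0.01 ± 0.16), the adaptor Mavs (-0.06 ± 0.21) and Irf3 (-0.28 ± 0.14) were not called.

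Receptors did not follow. Of 5 interferon receptor genes tested none was called higher, and Ifngr2, a chain of the interferon gamma receptor, was called lower (12.5, 20.3, 12.2 and 16.2 against 27.6, 27.3, 24.2 and 21.7; -0.64 ± 0.18). The Ifngr2 call was lost with DESeq2 and with any 1 of the 4 pools left out. Ifnar1 and Ifnar2, the 2 chains of the type I receptor, had 0.11 ± 0.10 and 0.07 ± 0.09. Among 18 ligand genes only Ifng, the interferon that T cells make, had enough UMIs to be tested, and it was at 155, 276, 179 and 281 against 97.5, 125, 89.3 and 107 (1.11 ± 0.09). Of 8 genes listed as negative regulators, 4 were called higher (median 0.29). Usp18, which removes Isg15 from proteins and blocks the type I receptor, was at 154, 146, 198 and 254 against 9.14, 13.2, 17.1 and 21.0 (3.65 ± 0.10), while Socs1, an inhibitor of JAK kinases, was at 288, 288, 267 and 283 against 159, 189, 139 and 151 (0.83 ± 0.07). Lgals9 (1.34 ± 0.06) and Socs3 (0.30 ± 0.06) were the other called genes of that list.

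The GTPases of cell-autonomous immunity, which attack the vacuoles of intracellular pathogens, were called higher in 15 of 15 genes (median 2.43). Iigp1 was at 37.5, 58.2, 63.7 and 76.2 against 3.86, 4.96, 3.0 and 3.19 (4.01 ± 0.20). Gbp6 was at 280, 282, 256 and 326 against 28.2, 38.0, 23.1 and 25.6 (3.35 ± 0.10), with Gbp10 at 3.39 ± 0.25 and Tgtp1 at 2.67 ± 0.13. Among other interferon-induced genes 44 of 46 were called higher (median 2.03), led by Ifi204 (5.02 ± 0.32), a member of the HIN-200 family, Ifi44 (4.47 ± 0.31), Phf11d (3.79 ± 0.56) and Slfn5 (3.74 ± 0.09).

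Antigen presentation moved widely but by less. Of 18 genes, 17 were called higher, with a median of 0.61. The class Ib molecule H2-T22 was at 568, 624, 447 and 524 against 274, 315, 221 and 234 (1.07 ± 0.05), and H2-T23, the mouse Qa-1 molecule, had 0.96 ± 0.05. Tapbp, which loads peptides on class I molecules, had 1.0 ± 0.06, and Psmb10, a subunit of the immunoproteasome, had 0.92 ± 0.07.

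Outside these lists, Cxcl10 was at 307, 299, 198 and 336 against 17.3, 19.7, 8.88 and 10.2 (4.41 ± 0.13), higher by more than any other gene but Gm47242 (4.53 ± 0.28). Trim30c (3.5 ± 0.25), of the TRIM family, Sdc3 (3.26 ± 0.27), a syndecan, Phf11c (2.58 ± 0.13) and Ube2l6 (2.5 ± 0.29), the enzyme that carries Isg15 to its targets, followed, with Gm13822, A930037H05Rik, Slfn3 and Tnp2 between 2.5 and 3.62. The genes that were lower fell by much less, except for a few with little signal. Gm14085 (-1.79 ± 0.29), Cd83 (-1.20 ± 0.22), a surface protein of activated cells, and Lmna (-1.06 ± 0.20), a nuclear lamin, were called lower, while Spp1 (-1.65 ± 0.39) rested on 20 UMIs, 19 of them from 1 cell. Twsg1, Dnah8, Cyth3, Myo1e, Qrfp and Slc26a11 lay between -0.95 and -1.09.

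**Figure D3:**
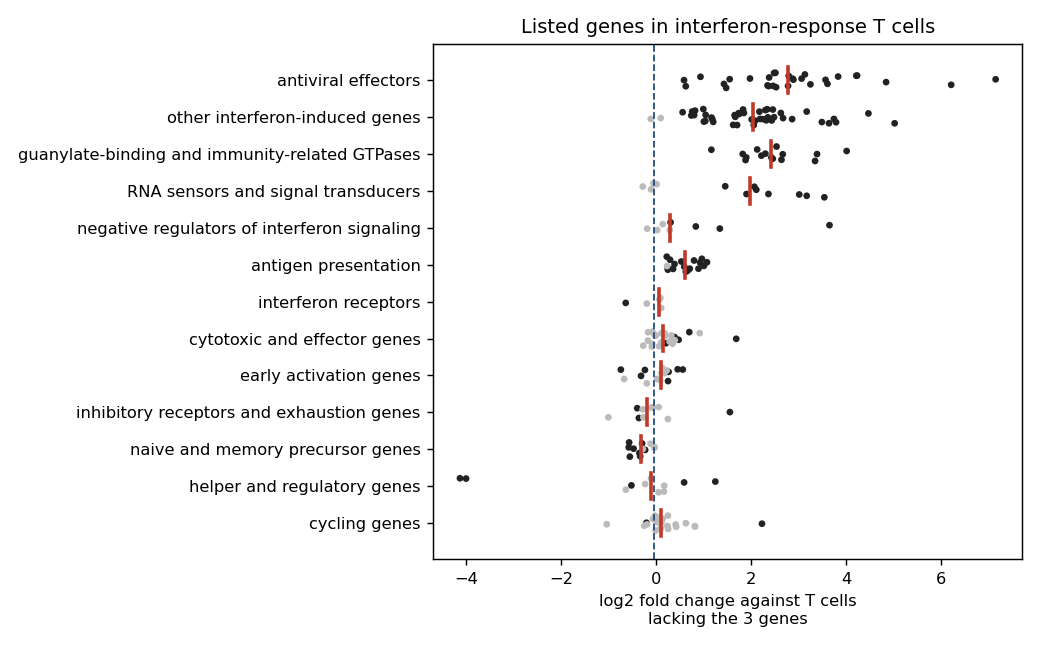
log2 fold change of interferon-response T cells against T cells lacking the 3 genes (horizontal axis) for the tested genes of 13 lists (vertical axis). Black points were called by edgeR and gray points were not, red bars are list medians and the dashed line is the median of all genes (-0.05); the 15 GTPases and 29 antiviral effectors all lie to the right of it.

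In the promoter windows, GAAANNGAAA on either strand was found in 13 of 26 antiviral effectors with an entry (50%), 11 of 37 other interferon-induced genes (29.7%) and 5 of 16 antigen presentation genes (31.2%), against 1079 of 27025 genes in the RefSeq table (3.99%). These are counts over genes that share families and sequence. For the other lists the search is void because too few genes had an entry (9 of 15 GTPases, for example).

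Genes of T cell state showed small differences. Of 12 naive and memory precursor genes, 8 were called lower and none higher (median -0.32). Tcf7, the factor of naive and stem-like T cells, was at 214, 224, 209 and 242 against 306, 264, 385 and 320 (-0.48 ± 0.08). Ccr7, the receptor that guides T cells to lymph nodes, was at 360, 347, 177 and 226 against 468, 513, 362 and 308 (-0.56 ± 0.08), and S1pr1, the egress receptor, and Actn1, an actin crosslinker, had -0.58 ± 0.10 and -0.57 ± 0.10. All 4 genes were lower in interferon-response T cells within each pool. With 1 pool left out at a time, 5 or 6 of the 12 were called lower.

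Cytotoxic and effector genes were called higher in 5 of 24 and lower in none (median 0.15). Gzmb, the protease granzyme B, was at 347, 465, 110 and 142 against 110, 169, 24.2 and 43.2 (1.69 ± 0.08). Gzmk, granzyme K, was at 224, 259, 61.0 and 67.0 against 114, 255, 21.2 and 29.7 (0.70 ± 0.15), with almost equal levels in Runx1::Runx1t1 replicate 2. Id2, a regulator of effector differentiation, had 0.47 ± 0.07, and Cxcr3, the receptor for Cxcl10, had 0.39 ± 0.09. Perforin (Prf1) was not called (-0.08 ± 0.14). With 1 pool left out at a time, between 3 (without Runx1::Runx1t1 replicate 1) and 8 (without control replicate 2) of the 24 were called higher.

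Of 10 inhibitory receptor and exhaustion genes, Cd274 (PD-L1, the ligand of PD-1), at 62.6, 69.7, 84.0 and 72.4 against 28.4, 29.3, 22 and 20.4, was called higher (1.55 ± 0.13), whereas Tox (-0.40 ± 0.10), a factor of exhausted T cells, and Tigit (-0.37 ± 0.09) were called lower. DESeq2 called none of the 10 lower, and 1 was called lower with any 1 pool left out and in Cd8 T cells. Of 15 early activation genes 4 were called higher and 3 lower, with 1 lower without control replicate 1 and 2 lower without any other pool or with DESeq2. Cd69, an early activation and retention marker, had 0.45 ± 0.05 and Myc 0.56 ± 0.09, while Tnfrsf4 (OX40) had -0.75 ± 0.12 and Nr4a1, an early target of the TCR, -0.32 ± 0.07. Of 11 helper and regulatory genes, Cd40lg (0.59 ± 0.14), the CD40 ligand, was among 2 called higher, and Il17a and Ikzf2 were among those called lower. Leaving out a pool gave 1 higher and 2 or 3 lower, except that none was higher without Runx1::Runx1t1 replicate 2. Il17a, the cytokine of type 17 cells, had 1, 2, 0 and 3 UMIs in all interferon-response T cells of the 4 pools, against 19.4, 24.8, 19.6 and 30.5 CPM in T cells lacking the 3 genes. Of 23 cycling genes, Ccnd1 (2.23 ± 0.50), cyclin D1, was called higher and H2afz (-0.21 ± 0.06), a histone variant, lower, beside 3.56% and 1.07% of all genes. A single call in each direction is no result about that list. DESeq2 called neither direction, no gene was higher without control replicate 2 or without cells holding 3 or more marker UMIs of other cell types, and none was lower in 3 of the 4 fits with 1 pool left out.

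**Figure D4:**
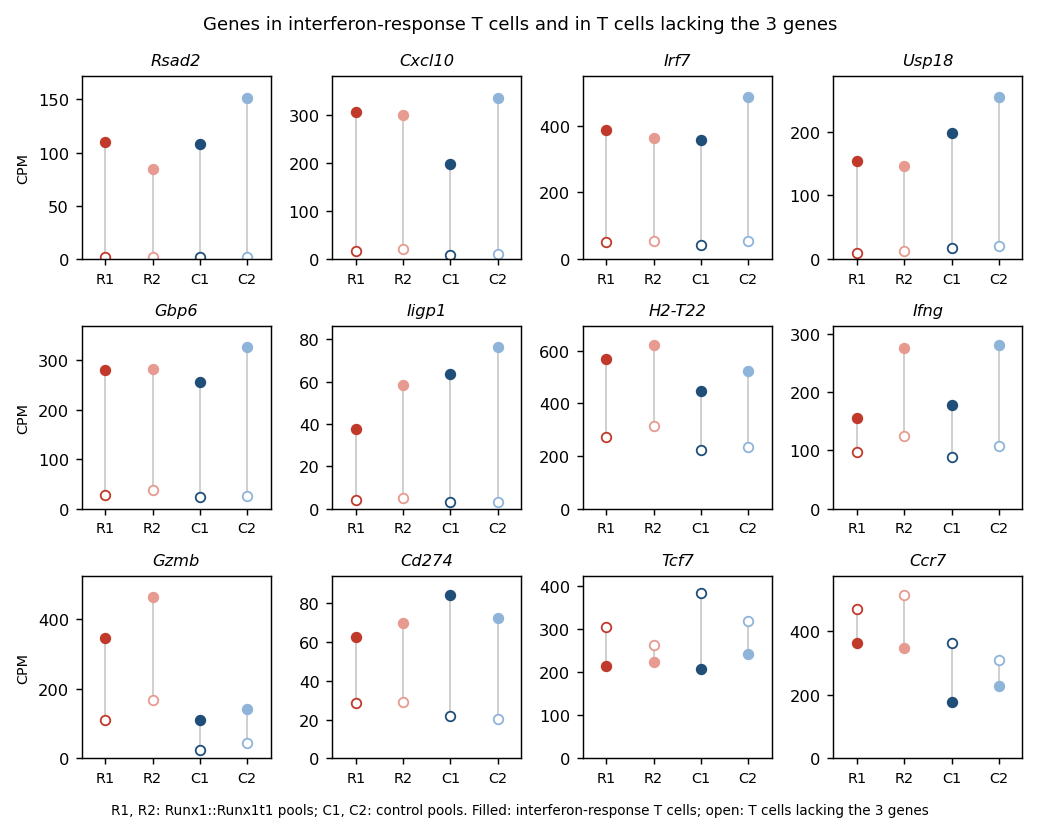
CPM (vertical axes, from 0) of 12 named genes in each pool, with filled points for interferon-response T cells and open points for T cells lacking the 3 genes (R1, R2: Runx1::Runx1t1 replicates; C1, C2: control replicates). Tcf7 and Ccr7 are lower in interferon-response T cells in all 4 pools and the other 10 genes are higher in all 4.

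When only Cd8 T cells were compared, 359 of 11666 genes (3.08%) were called higher and 107 (0.917%) lower, and 391 genes were called in both comparisons. Leaving out a pool gave 291 to 314 higher and 31 to 105 lower in Cd8 T cells, and DESeq2 gave 348 and 36. Among the lists, 29 of 29 antiviral effectors, 15 of 15 GTPases and 17 of 18 antigen presentation genes were higher, 8 of 12 naive and memory precursor genes were lower (median -0.47), and 6 of 24 cytotoxic and effector genes were higher. Rsad2 was at 129, 90.4, 116 and 136 against 1.01, 1.22, 1.21 and 1.37 (6.58 ± 0.17). Tnfrsf4, Il17a and Ikzf2 were not called in Cd8 T cells. Other lists had fewer calls there: none of 10 helper and regulatory genes and none of 10 myeloid markers was called, 1 of 4 plasmacytoid dendritic cell markers was higher, and 3 of 15 early activation genes were higher and 1 lower. Interferon-response T cells with only Cd4 UMIs were too few for a fit (8 in control replicate 1), but 83.3%, 92.9%, 100% and 100% of them lay above the 95th percentile of T cells lacking the 3 genes for the 93 other interferon-induced genes. That limit was set over all T cells lacking the 3 genes, and those with only Cd4 UMIs had higher medians (0.967%, 0.980%, 1.01% and 1.05%) than all of them.

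Markers of other cell types were examined because the sort can let such cells through. In interferon-response T cells the B cell markers summed to 141, 177, 763 and 185 CPM over 9 genes, led by Ighm or, in control replicate 1, Cd74, and 5 of the 9 genes were at 0 in each pool. Myeloid markers summed to 105, 116, 1050 and 244 over 13 genes, led by Fcer1g, Tyrobp or, in control replicate 1, Lyz2. Natural killer markers summed to 272, 245, 623 and 284, plasmacytoid dendritic cell markers to 55.1, 52.0, 135 and 193, erythroid and platelet markers to 2.5, 12.3, 17.6 and 27.0, and progenitor markers to 21.3, 27.3, 2.71 and 51.6. Both control pools were above both Runx1::Runx1t1 pools for the B cell, myeloid, natural killer, plasmacytoid dendritic and erythroid lists. T cells lacking the 3 genes had the same order for the myeloid (166 and 111 against 1261 and 594) and natural killer lists (280 and 219 against 486 and 428). In the chosen cells, 53 of 100 and 168 of 250 plasmacytoid dendritic UMIs of control replicates 1 and 2 came from 1 cell each. Without cells that had 3 or more UMIs of the 17 defining markers, that order held for the myeloid list (467 and 178 in the control pools), while control replicate 2 fell to 150 for the B cell, 38.9 for the plasmacytoid dendritic, 7.78 for the erythroid and 266 for the natural killer list, each below a Runx1::Runx1t1 pool. Those markers include genes of the B cell, myeloid, plasmacytoid dendritic and erythroid lists, so lower sums there follow in part from the filter. At least 3 UMIs of 17 defining markers were found in 5 and 7 interferon-response cells of control replicates 1 and 2 and in none of the Runx1::Runx1t1 pools. In T cells lacking the 3 genes 1.32% and 1.54% of cells in the Runx1::Runx1t1 pools and 4.75% and 2.61% in the control pools had as many, against 6.49% and 4.46% of the chosen cells of the control pools. One of them, a cell with 13095 UMIs, had 439 UMIs of Cd74, 147 of H2-Aa and 100 of Lyz2 with a single Cd3 UMI. Another, with 28900 UMIs and marked as a doublet, had 204 UMIs of Lyz2.

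Against T cells lacking the 3 genes, 5 of 12 myeloid markers were called lower and none higher, whereas 4 of 7 plasmacytoid dendritic cell markers were called higher, among them Irf8 (1.05 ± 0.19), which interferon also induces, and Tcf4 (1.28 ± 0.29). These calls rested on few cells: 2 of 7 were called by DESeq2, 2 of 5 without the cells that had 3 or more marker UMIs, and 2 of 7 without control replicate 2, where the median turned from 1.28 to -0.66. Camp (-3.64 ± 0.38), Ngp (-3.28 ± 0.34) and Mpo (-1.23 ± 0.35) were among the myeloid genes called lower. Without cells that had 3 or more UMIs of 17 markers of other cell types, Ngp turned to 0.36, Mpo to 0.38 and Cpa3 to 0.14. None of 10 myeloid markers was called in that fit, and DESeq2 called 1 of 12 lower. The 17 markers that this filter counts include Mpo and other genes of the myeloid, plasmacytoid dendritic, B cell, erythroid and progenitor lists. Calls of these lists that were lost in that fit are therefore no independent evidence. Without control replicate 2, 4 of 11 were lower and 1 higher, and without any other pool 4 or 5 were lower. Of the remaining lists, Hbb-bs (-1.71 ± 0.37) and Cpa3 (-1.86 ± 0.22) were called lower, Klra8 had no UMI in interferon-response T cells, and no B cell marker was called. No erythroid, platelet or progenitor marker was called by DESeq2 or without the cells that had 3 or more marker UMIs. Of 8 stress and RNA quality genes, the heat shock genes Hspa1b (1.78 ± 0.30), Hspa8 (0.20 ± 0.04) and Hsp90aa1 (0.24 ± 0.07) were called higher, with 1 left without Runx1::Runx1t1 replicate 2 and 2 without control replicate 1. Without cells that had 3 or more marker UMIs, all 29 antiviral effectors, 15 GTPases and 44 of 46 other interferon-induced genes were still called higher, 6 naive and memory precursor genes were lower and 8 cytotoxic genes were higher.

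Interferon-response T cells were finally compared between the groups. Of 7450 genes tested in the 4 pool sums, 67 (0.899%) were called higher in the Runx1::Runx1t1 group and 40 (0.537%) lower. The calls depended on the pools and the tool: DESeq2 called 21 genes, 20 of them among the 107, and without control replicate 2 only 42 of the 107 were among 74 called. The median of all genes was 0.00. With the replicate number as a block, 238 genes were called, 135 higher and 103 lower, and all 107 were among them.

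Of 24 cytotoxic and effector genes, 7 were called higher in the Runx1::Runx1t1 group, beside 0.899% of all genes, and 1 lower (median 0.34). Gzmk, at 224 and 259 in the Runx1::Runx1t1 pools and 61.0 and 67.0 in the control pools, had a log2 fold change of 1.86 ± 0.16 (SE), and Gzmb, at 347 and 465 against 110 and 142, had 1.61 ± 0.16 (edgeR adjusted p = 8.6e-06 and 3.4e-05). The chemokine Ccl3 was at 78.8 and 272 against 44.7 and 29.3 (2.31 ± 0.39, edgeR adjusted p = 0.0043). The chemokines Ccl4 (1.62 ± 0.26) and Ccl5 (0.97 ± 0.17), Klrg1 (1.91 ± 0.42), a receptor of terminal effectors, and Id2 (0.68 ± 0.13) were also called higher, and Klrk1, the receptor NKG2D, was called lower (131 and 84.7 against 285 and 180; -1.14 ± 0.22, edgeR adjusted p = 0.011). T cells lacking the 3 genes had the same order of groups for Klrk1 (94.5 and 66.6 against 237 and 238), and 2 of 4 natural killer markers were called lower in the interferon-response T cells too. Without control replicate 2 the count was 4 higher and 2 lower.

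Inhibitory receptors and exhaustion genes were called higher in 5 of 8 tested, beside 0.899% of all genes, and lower in none (median 1.43). The 5 were 4 receptors and the factor Tox. Tigit was at 131 and 202 against 37.9 and 46.2 (1.92 ± 0.21), Ctla4 at 144 and 235 against 54.2 and 45.4 (1.93 ± 0.21), and Lag3 at 48.8 and 114 against 19.0 and 9.24 (2.65 ± 0.38; edgeR adjusted p = 6.0e-05, 6.0e-05 and 0.0012). Pdcd1, which codes for PD-1, had 1.67 ± 0.29 and Tox 1.19 ± 0.20. Of 14 early activation genes Tnfrsf4 (2.35 ± 0.25) was called higher, and of 7 helper and regulatory genes the costimulatory receptor Icos (1.28 ± 0.19). Of 12 naive and memory precursor genes Ccr7 (0.74 ± 0.15) was called higher. No gene of these last lists was called in Cd8 T cells alone.

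T cells lacking the 3 genes had the same order of groups in these genes. Gzmk was at 114 and 255 against 21.2 and 29.7 there, Gzmb at 110 and 169 against 24.2 and 43.2, and Tigit at 172 and 285 against 54.6 and 47.0. Ctla4 was at 196 and 246 against 83.8 and 57.6, and Lag3 at 59.0 and 166 against 12.4 and 5.69. The difference between the 2 differences was not called for any of the 5 (edgeR interaction term, adjusted p between 0.43 and 0.81), which does not show that they were equal.

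**Figure D5:**
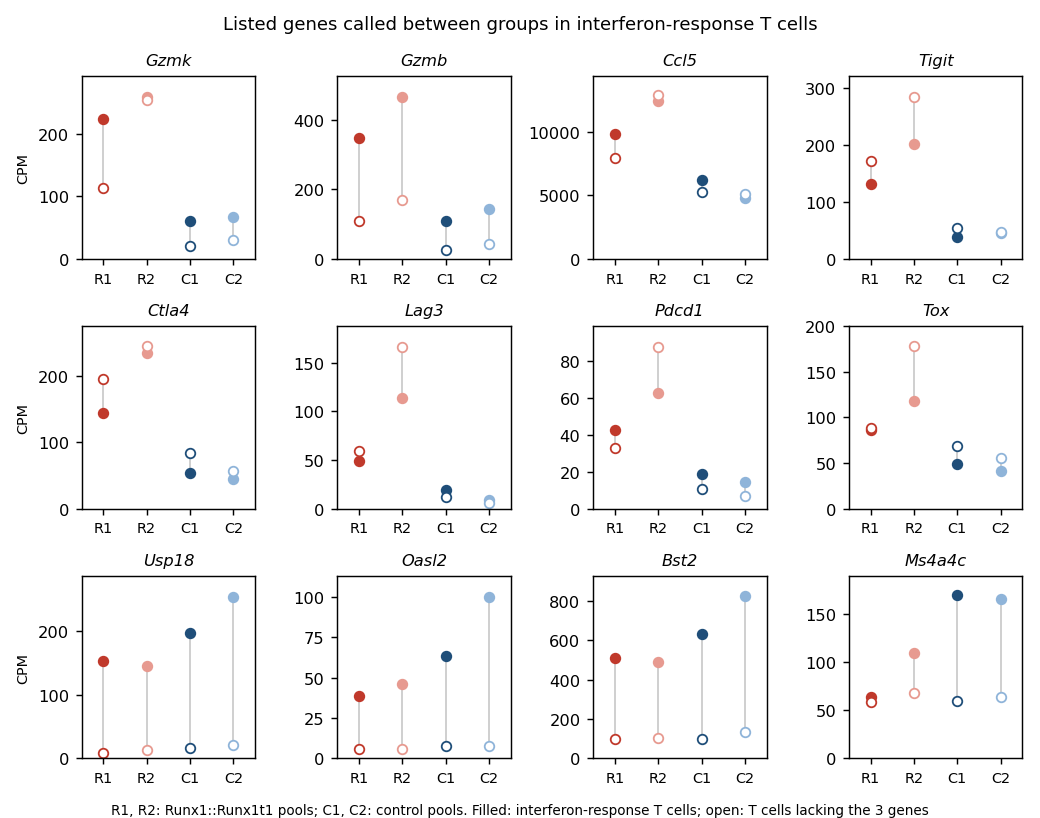
CPM (vertical axes, from 0) of 12 listed genes called between the groups in interferon-response T cells, with filled points for these cells and open points for T cells lacking the 3 genes in the same pool. For Gzmk, Gzmb, Ccl5, Tigit, Ctla4, Lag3, Pdcd1 and Tox both classes are higher in the 2 Runx1::Runx1t1 pools; for Usp18, Oasl2, Bst2 and Ms4a4c the filled points are higher in the 2 control pools.

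Genes of the interferon response that were called between the groups were lower in the Runx1::Runx1t1 group. Of 29 antiviral effectors 3 were called lower, beside 0.537% of all genes, and none higher, and the median was -0.14. A log2 fold change above 0 was found for 2 of the 29, beside 3707 of all 7450 genes. Ifitm3, which blocks viral entry, was at 47.6 and 26.5 against 211 and 107 (-2.14 ± 0.30, edgeR adjusted p = 0.0012), with 84 of 156 UMIs of control replicate 1 in 1 cell. Oasl2, of the oligoadenylate synthetase family, was at 38.8 and 45.9 against 63.7 and 100 (-1.05 ± 0.23, edgeR adjusted p = 0.029). Bst2 (tetherin, which holds budding virus at the surface) was at 513 and 492 against 633 and 824 (-0.59 ± 0.14, edgeR adjusted p = 0.049). Of 44 other interferon-induced genes only Ms4a4c was called, at 63.8 and 110 against 171 and 166 (-0.96 ± 0.18, edgeR adjusted p = 0.011; median of the list -0.17), and of 15 GTPases none (median -0.16). Usp18 (-0.67 ± 0.16, edgeR adjusted p = 0.040) and the phosphatase Ptpn6 (-0.91 ± 0.18) were called lower among 7 negative regulators, where T cells lacking the 3 genes had the same order of groups for Usp18 (9.14 and 13.2 against 17.1 and 21.0), and none of 18 antigen presentation genes was called (median 0.11).

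These calls changed with the tool and the pools. DESeq2 called none of the antiviral effectors and none of the other interferon-induced genes. Without control replicate 2, 13 of 29 antiviral effectors and 9 of 15 GTPases had log2 fold changes above 0, and the GTPase median turned to 0.06. Without the cells that had 3 or more marker UMIs of other cell types, 5 antiviral effectors, 5 other interferon-induced genes and 1 GTPase were called lower. Rsad2 (-0.52 ± 0.19) and Irf7 (-0.24 ± 0.15) were not called. In the edgeR interaction term none of 29 antiviral effectors, none of 8 genes listed as negative regulators and, of 46 other interferon-induced genes, only Ly6a was called. Lower levels particular to the interferon-response T cells were thus not shown for the genes called here, which does not show equal differences in both classes.

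Most of the 10 genes with the largest differences between the groups came from few cells. Lyz2, the lysozyme of myeloid cells, had 2 and 3 UMIs in the Runx1::Runx1t1 pools against 313 and 30 in the control pools, and 204 of the 313 were in 1 cell (-6.24 ± 1.26). Cd74, the invariant chain of class II molecules, had 15 and 35 UMIs against 469 and 67, with 439 in 1 cell (-3.65 ± 0.78). Mpeg1 (-4.82 ± 0.95), Bcl11a (-4.64 ± 0.91), Ifitm2 (-4.50 ± 0.41) and Alox5ap (-3.81 ± 0.60) were found in 0 to 3 cells of each Runx1::Runx1t1 pool and 3 to 11 cells of each control pool. Without the cells that had 3 or more marker UMIs, Lyz2 and Cd74 were no longer called (edgeR adjusted p = 0.11 and 0.92), and the others were too low to be tested. Lyz2 is itself among the markers that this filter counts, so the loss of its call is no independent evidence. The TCR segments Trbv30 (4.84 ± 0.89), Trav7d-3 (3.20 ± 0.60) and Trav13-4-dv7 (-3.16 ± 0.54) came from at most 7 cells of a pool. Cpa3, a mast cell protease that is also found in progenitors, had 14 and 30 UMIs in 11 and 22 cells against 1 and 1 UMIs (4.31 ± 0.64), and T cells lacking the 3 genes were at 88.4 and 87.3 against 0.249 and 0.493 CPM, so the same order was seen outside the interferon-response cells.

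In Cd8 T cells alone, 22 of 5665 genes (0.388%) were called higher and 11 (0.194%) lower, 31 of them also called in all interferon-response T cells. Gzmk (1.47 ± 0.23), Gzmb (1.76 ± 0.23), Ctla4, Lag3 and Tigit were among the higher ones and Ifitm3 (-3.13 ± 0.40) among the lower. Ifitm3 was the only 1 of 28 antiviral effectors called, and 8 of the 28 had a log2 fold change above 0. None of 41 other interferon-induced genes and none of 14 GTPases was called. Of 6 inhibitory receptor and exhaustion genes tested there 3 were higher. None of 11 early activation, 3 helper and regulatory and 12 naive and memory precursor genes was called. The Cd8 sums also held fewer cells, and the part of this was not tested. DESeq2 called 1 gene in this comparison.

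For 13 of 12718 genes (0.102%) the difference between interferon-response T cells and T cells lacking the 3 genes itself differed between the groups (edgeR interaction term). All 13 had a smaller log2 fold change in the Runx1::Runx1t1 group. Of the lists, none of 29 antiviral effectors and none of 15 GTPases was among them, with 1 gene each of 46 other interferon-induced genes (Ly6a), 23 cycling genes (Mki67), 24 cytotoxic and effector genes (Gzma) and 15 early activation genes (Tnfrsf9). Ube2l6 was at 32.5 and 60.9 in interferon-response T cells of the Runx1::Runx1t1 pools against 9.80 and 21.0 in T cells lacking the 3 genes, and at 52.8 and 67.0 against 3.96 and 5.97 in the control pools. Its level in T cells lacking the 3 genes was higher in both Runx1::Runx1t1 pools than in both control pools, while the interferon-response T cells of the groups overlapped. Without either Runx1::Runx1t1 pool none of the 12823 or 12834 genes was called (760 and 549 had an unadjusted p under 0.05).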

How the data were processed

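T cells sorted from the bone marrow of 4 pools of 2 mice gave 4 gene expression and 4 TCR libraries. Per the labels, Cell Ranger 6.1.2 and GRCm38 were used by the authors, and the annotation release was not given in the sources used here. The deposited matrices hold raw UMI counts of 32285 genes per barcode, and the deposited TCR tables hold UMI counts of 23966, 20802, 21366 and 23058 contigs (Runx1::Runx1t1 replicates 1 and 2, control replicates 1 and 2). The members and gene lists were chosen with earlier results of these data known.

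From these files, barcodes were selected by the rule given above in Python 3.11.15 with scanpy 1.11.5. Counts were summed per pool and class where a sum held 20 or more cells, filtered with filterByExpr, scaled by TMM and tested by edgeR 4.0.16 (quasi-likelihood, Benjamini-Hochberg, adjusted p under 0.05) in R 4.3.3. The classes were compared with the pool as a block, the groups without a block, and the difference of the class effect between groups by an interaction term with the pool as a block. The current quasi-likelihood method of edgeR was taken after the calls of the older default had been seen, because the latter gave an unbounded prior for the interaction. Shares were compared by exact permutation tests over pools. Doublets were scored with Scrublet and kept; its automatic threshold worked in 1 library only (4.22% marked), and in the others the highest 5% of scores were marked. DESeq2 1.42.0 was an alternative. The numbers limit precision to 77 to 157 chosen cells a pool.

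Named were Ifit1, Ifit3, Isg15 and Rsad2, up to 4 called genes of each list by size of the fold change with the same sign in all 4 pools (the most abundant where none was called), the 10 highest and 10 lowest called genes outside the lists with at least 20 UMIs, the 10 largest called differences between groups without overlap, and Cd4, Cd8a and Cd8b1. All other genes named were chosen after their values were seen. Pools of a group are separate mice, and nothing in the sources ties a replicate number to a shared day.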

Additional observations from a re-analysis of the deposited data

Results flagged for a closer look

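For 13 genes the test of the difference itself (edgeR interaction term, adjusted p under 0.05) found an unequal difference between interferon-response T cells and T cells lacking the 3 genes in the 2 groups. Of the 13, none was called without either Runx1::Runx1t1 pool, 1 without control replicate 2, 10 without control replicate 1 and 6 in Cd8 T cells alone. Each value is the log2 difference in the Runx1::Runx1t1 group minus that in the control group. Ube2l6, which is outside the lists, had -1.96. Ly6a, the 1 gene called of 46 other interferon-induced genes, had -0.66, where Ly6a (Sca-1) was at 539 and 667 CPM in interferon-response T cells of the Runx1::Runx1t1 pools against 541 and 747 in the control pools, and at 162 and 180 against 96.8 and 129 in T cells lacking the 3 genes. Ifitm2, of the interferon-induced transmembrane family, had -3.62 and was found in 2 and 3 interferon-response cells of the Runx1::Runx1t1 pools.

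Of the 23 cycling genes only Mki67 (-2.25) was called. Pclaf (-3.67), a clamp-associated factor, Tuba1b (-0.88), a tubulin, Rrm2 (-3.87), which makes nucleotides for DNA, and the histone genes Hist1h2ae (-2.82), Hist1h1b (-3.02) and Hist1h2ab (-2.99) were called outside that list. In control replicate 2, 66 of 97 UMIs of Hist1h2ae and 28 of 30 of Hist1h1b came from 1 cell. The remaining genes were Tnfrsf9 (-2.13), which codes for the costimulatory receptor 4-1BB, granzyme A (Gzma, -2.27), with 165 of 285 UMIs of control replicate 2 in 1 cell, and the TCR segment Trbv17 (-1.10).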

How the results depend on the processing

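With 2 pools a group, no share could pass a test, and a missed threshold does not show equal shares. When any 2 or more of the 3 genes were enough, the mean share was 3.26% against 2.78%, a difference of 0.47 percentage points, and for Cd4 T cells 0.46. Leaving out 1 pool at a time, the difference in the share ran from -0.336 to 0.244 percentage points for all T cells. It ran from -0.542 to 0.214 for Cd8 and -0.628 to 0.140 for Cd4, so its sign changed with the pool left out. The TCR differences ran from 1.41 to 4.83 (paired TCR) and 0.963 to 6.15 (clonotypes), and in Cd8 T cells alone they were 0.252 and 10.4. Among cells of 5000 to 15000 UMIs the paired TCR difference turned to -0.153.

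Without the pool as a block, 278 genes (265 higher, 13 lower) were called between the classes and 237 (227 and 10) in Cd8 T cells, and DESeq2 called 448 higher and 47 lower; leaving out a pool gave 419 to 499 and 322 to 419. Between the groups DESeq2 called 21 genes, and leaving out a pool gave 74 to 260. In Cd8 T cells DESeq2 called 1, no filter on low counts gave 12, leaving out doublets 19 and leaving out a pool 27 to 141. For the interaction, the older edgeR method called 115 genes, Cd8 T cells alone 22, leaving out cells with RNA of other cell types 8 and leaving out a pool 0 to 24; with 0 called by edgeR, 760 and 549 genes had an unadjusted p under 0.05. The causes were not tested. The older method and the removal of cells with RNA of other types were chosen after seeing the data.

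Same-numbered pools did not clearly pair (correlation of deviations 0.0952 over 7456 genes, 2 pairs). With the replicate number as a block, 238 genes were called between groups and 35 in Cd8 T cells. The share differences stayed at -0.046, -0.164 and -0.244 percentage points (exact permutation test of signs, p = 1, 1 and 0.5, where 2 pairs cannot give a p under 0.5). Within replicates 1 and 2 the difference was 0.056 and -0.384 percentage points for Cd8 T cells, and -0.202 and -0.286 for Cd4 T cells.

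Ngp (0.36), Mpo (0.38) and Cpa3 (0.14, and 0.28 in Cd8 T cells) changed sign between classes without cells holding RNA of other cell types, and Tnfrsf4 in Cd8 T cells ran from -3.79 (without Runx1::Runx1t1 replicate 2) to 0.99 with 1 pool left out. Mpo is itself among the markers used to remove cells with RNA of other cell types, so its change is no independent evidence. Cd4 T cells (8 cells in the smallest sum) and Cd8 T cells with 2 or more UMIs of each of the 3 genes (15 cells) were not run.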

Other observations

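Xist was at 449 CPM in T cells lacking the 3 genes of Runx1::Runx1t1 replicate 1 and at 234 in those of control replicate 1, where it was found in 80.2% and 42.6% of cells. In interferon-response T cells of the same pools it was at 414 and 241.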
